A study of Mus musculus with 6 samples.

Results

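The genes examined here code for the machinery that segregates chromosomes at cell division: mitotic cyclins and kinases, spindle checkpoint and kinetochore proteins, spindle motors, and factors of anaphase and cytokinesis. They were chosen by name and role, with earlier results of these data known, and number 40 of the 56748 genes in the count table. All 40 were found and all 40 passed the filter on low counts. The polyA RNA came from primary CD4 T cells of wild-type mice, labelled as splenocytes, and the study's methods give spleen and lymph nodes of C57BL/6 mice aged 6 to 10 weeks. Naïve cells, isolated by negative selection, were stimulated through CD3 and CD28 and kept for 3 days with IL-2, TGF-β and antibodies to IFNγ and IL-4, which drives them toward regulatory T cells (Tregs). From day 0 the medium held 10 μM of either a scrambled antisense oligonucleotide (ASO) or an ASO directed at *Pgam*, the gene name of phosphoglycerate mutase. There were 3 libraries per label, and both labels share the strain, culture and dose. The cells were not sorted after culture, so each library is a mix of every cell that grew in the well.

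Entry into mitosis is driven by the kinase CDK1 bound to cyclins A and B. Microtubules from the spindle poles then attach to kinetochores, protein assemblies on the centromeres, and a checkpoint holds back the anaphase-promoting complex until every chromosome is attached. Transcripts of most of these genes build up in the G2 and M phases, so that a naïve T cell, which is quiescent, has little of them until it is stimulated through its receptor and starts to divide.

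The libraries held 17588755, 18032805 and 16231127 counts in scrambled replicates 1, 2 and 3, and 16589933, 15860476 and 16803881 counts in *Pgam* replicates 1, 2 and 3. Levels are given as CPM, the counts scaled to a common library size, with edgeR's TMM factors. The targeted genes were looked at first. *Pgam1* stood at 600, 478 and 707 CPM in the scrambled libraries and at 658, 661 and 707 CPM in those labelled *Pgam* ASO. The groups overlapped, and the log2 fold change of *Pgam1* was 0.18 (SE 0.13; adjusted p = 0.331 by the quasi-likelihood test of edgeR, Benjamini-Hochberg method over all tested genes). *Pgam2*, the muscle form, was barely counted, at 5.23, 6.75 and 2.85 CPM against 2.98, 2.69 and 2.60 CPM. Its log2 fold change was -0.84 (SE 0.31) and did not pass the same edgeR test either (adjusted p = 0.0854). At an unadjusted p under 0.05, 1 of the 2 genes was lower, *Pgam2*, whose groups overlapped through scrambled replicate 3 alone, and DESeq2 and limma-voom called 0. Since neither targeted gene passed after adjustment, the treated samples are called the libraries labelled *Pgam* ASO throughout. The markers of CD4 T cells were all counted in every library, *Cd4* itself at 650.2 CPM or more, and are given with the other cell type markers after the mitotic genes. The study calls its replicates biological, but the labels do not say whether they came from separate animals, so the p-values measure the spread between these samples.

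Most of the mitotic genes were higher in the libraries labelled *Pgam* ASO. By edgeR's quasi-likelihood test 13 of 40 rose at an adjusted p under 0.05, or 32.5%, where 8.03% of the 14936 tested genes rose. None fell (0 of 40, with 0 of 40 lower at an unadjusted p under 0.05 and 0 lower by DESeq2 or limma-voom), where 9.15% of tested genes fell. DESeq2 called 17 members higher and limma-voom 13, where they called 10.3% and 7.84% of all tested genes higher. No member passed with a change of 1 or more on the log2 scale (0 by edgeR, DESeq2 and limma-voom, and 0 at an unadjusted p under 0.05), where 4.51% of tested genes did. The log2 fold change was above 0 in 35 members, or 87.5%, against 49.4% of tested genes, and in 34 with library size alone and 36 with RLE factors. All *Pgam* ASO libraries lay above all scrambled libraries in 28 members, where this held for 19.6% of tested genes, and in 0 members did they all lie below, where this held for 19.8%. The changes were small: the median log2 fold change was 0.25 over the members and -0.006 over all tested genes, and the members ran from -0.20 (*Cdc25b*) to 0.55 (*Spc24*). The calls lie close to the threshold, with adjusted p from 0.0191 to 0.0453 in the edgeR test. With the replicate number as a block, edgeR called 2 members higher (*Plk1* and *Spc24*), and 3.21% of all tested genes. In bulk RNA, fewer cells of a type and less RNA per cell cannot be told apart, and the same holds for more.

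**Figure D1:**
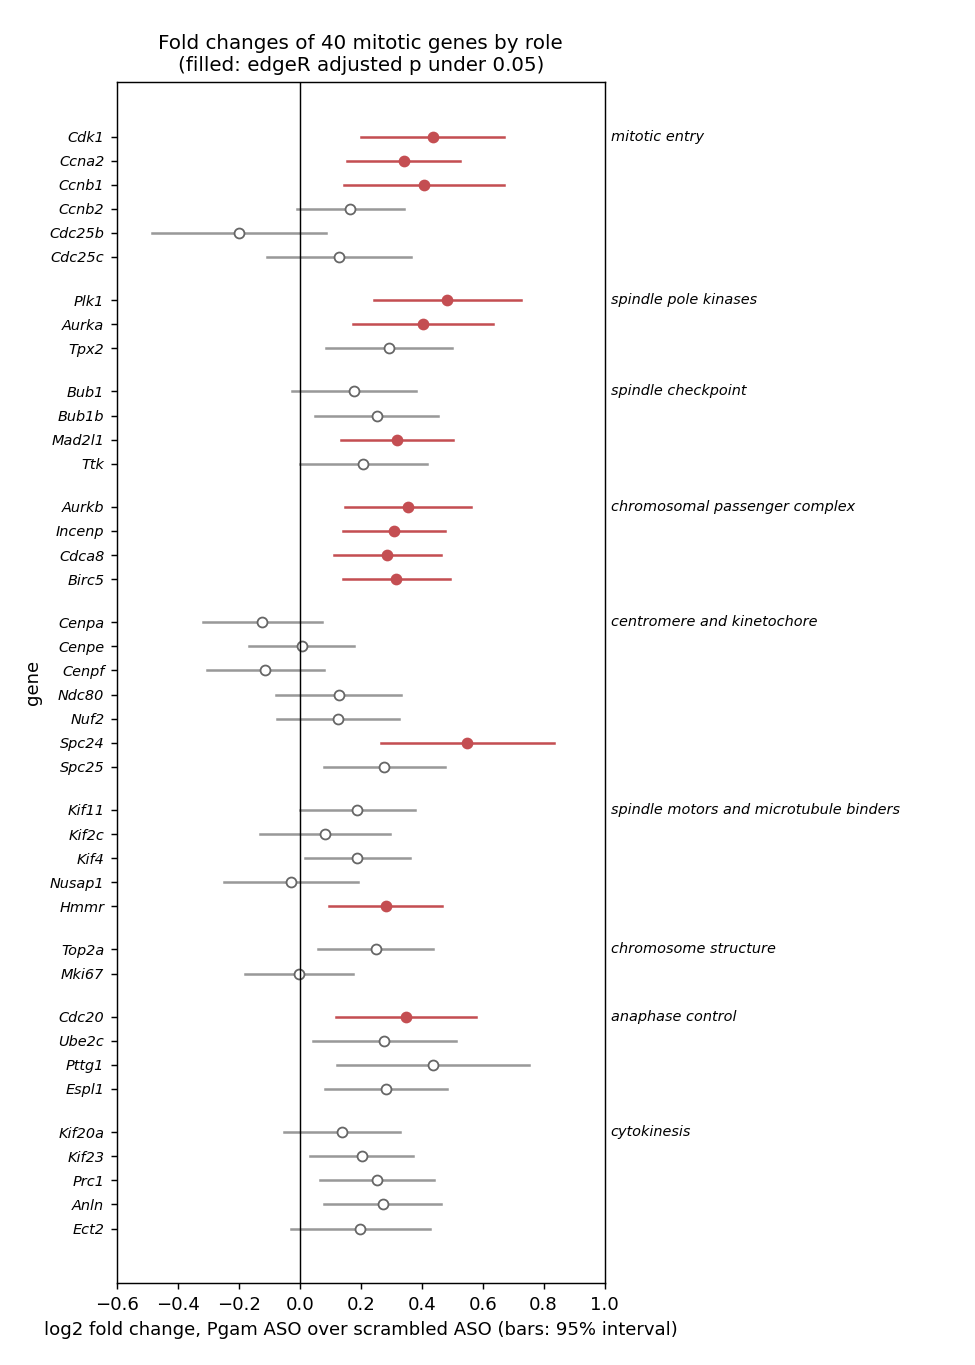
Log2 fold change of each of the 40 mitotic genes, *Pgam* ASO over scrambled ASO, with its 95% interval from the edgeR fit, grouped by role. The 13 filled points passed the test and all lie to the right of 0.

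Among the libraries, scrambled replicate 2 stood apart. It was the lowest library for 35 of 40 members, while the highest was spread over *Pgam* replicates 1, 2 and 3 with 11 members each. The median member lay 0.21 below its own mean over the 6 libraries in scrambled replicate 2 on the log2 scale (-0.21), against -0.08 and -0.04 in scrambled replicates 1 and 3, and 0.09, 0.14 and 0.13 in *Pgam* replicates 1, 2 and 3. Without scrambled replicate 2, the median log2 fold change was 0.19, 34 members were above 0, and 4 were called (*Cdk1*, *Plk1*, *Incenp* and *Spc24*). Calls also depended on other libraries: 0 members passed in edgeR without scrambled replicate 1, without *Pgam* replicate 1 or without *Pgam* replicate 2, with 22, 24 and 18 members higher at an unadjusted p under 0.05. The share of all tested genes called higher was also lower in these fits, at 1.45%, 2.1% and 1.03%, and it was 3.25% without scrambled replicate 2. Without scrambled replicate 3 the count was 18, with 11% of all tested genes called higher. Without *Pgam* replicate 3 it was 11, of which 10 were among the 13, with 10.2% of all tested genes. In that fit 1 member was lower at an unadjusted p under 0.05, and 0 were called lower. The direction moved less, since between 34 and 37 members were above 0 whichever library was left out, with a median log2 fold change from 0.19 to 0.29.

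**Figure D2:**
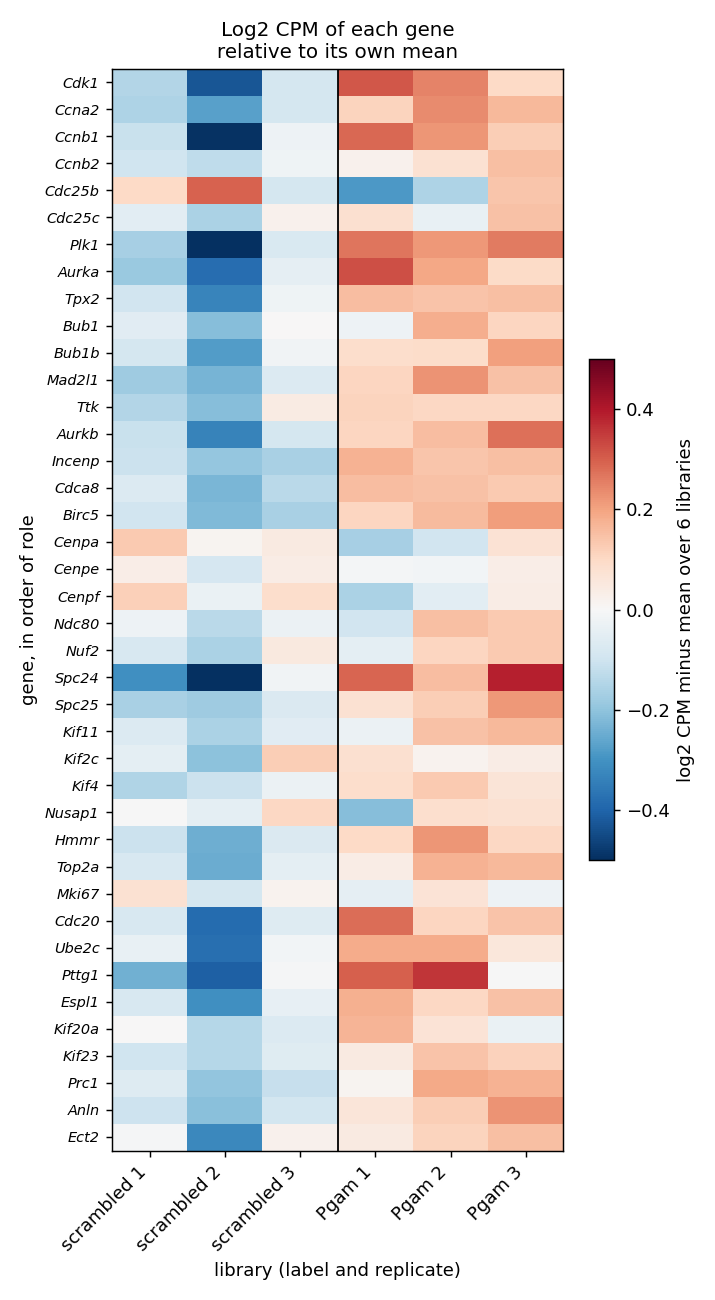
Log2 CPM of each mitotic gene in each of the 6 libraries, as the difference from that gene's mean (color scale, log2 units). Scrambled replicate 2 is the lowest library for 35 of the 40 genes, and the columns of *Pgam* ASO are mostly above the mean.

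Summed over the 40 genes, the level was 7746, 6948 and 7821 CPM in the scrambled libraries and 8306, 8685 and 8619.9 CPM in the libraries labelled *Pgam* ASO. The groups did not overlap, and the means were 7505 ± 484 and 8537 ± 203 CPM (SD, n = 3), a ratio of 1.14. Counts of the members made up 0.783%, 0.713% and 0.778% of all counts in the scrambled libraries and 0.806%, 0.854% and 0.867% in the others. Depth was ample, since the lowest count of any member in any library was 322. *Top2a* and *Mki67* alone held between 31.2% and 33.6% of the members' counts. Per kilobase of the annotated principal transcript, the members with the highest mean level were *Top2a* at 238, *Ube2c* at 234, *Cenpa* at 165, *Birc5* at 147 and *Mki67* at 135 CPM per kb. The lowest were *Anln* at 13.5, *Cdc25c* at 13.6 and *Mad2l1* at 14.3 CPM per kb.

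The 40 genes lie on 16 chromosomes, with at most 8 on chromosome 2. What many of them share is short promoter sequence. The cell cycle genes homology region (CHR), with the core letters TTTGAA, and the CCAAT box, with the letters CCAAT, are elements known from promoters of genes expressed in G2 and M. Both were searched on both strands in RefSeq promoter windows (GRCm38.p6) from 250 bases before to 50 bases after the transcript start. A window was found for 33 members, and 7 had no entry (*Ccna2*, *Cdc25c*, *Tpx2*, *Aurkb*, *Incenp*, *Spc24* and *Kif20a*). The CHR letters were in 24 of 33 windows, or 72.7%, against 12.2% of 10014 windows of tested genes and 18.1% of all 27025 gene windows. Among related genes they were in 35.8% of windows of the other mitotic genes and 13.8% of S phase genes. In 22 of these 24 a match began within 50 bases of the start. The CCAAT letters were in 25 windows, or 75.8%, against 39.1% of tested genes and 37.9% of all, and in 60 of 109 windows of the other mitotic genes and 20 of 29 of S phase genes (69.0%). Both were in 21 windows, or 63.6%, against 5.2% of tested genes, and 1 pair of matches overlapped. Whether members with the CHR letters differ in their change was not tested. The letters were in 6 of the 9 called members with a window and in 18 of the 24 not called. The median log2 fold change was 0.25 over members with CHR and 0.18 over the 9 without. A variant core of the CHR, TTCGAA, was searched as well and is not counted in these values. It was in 4 of 33 member windows, or 12.1%, against 2.2% of tested genes. Among the 9 members without TTTGAA, *Bub1* and *Cdc25b* held the variant.

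Promoters of 4 members are shown from 200 bases before to 20 bases after the start, 5′ to 3′, with CHR and CCAAT letters on either strand in capitals. *Cdk1* (chr10:69352893-69353112, minus strand) and *Cdc20* (chr4:118437324-118437543, minus strand) hold both elements and rose. *Ccnb1* (chr13:100786467-100786686, minus strand) rose, and its stretch holds 2 CCAAT matches and 0 of CHR. *Mki67* (chr7:135716360-135716579, minus strand) holds 2 CHR and 3 CCAAT matches, and its groups overlapped.
Cdk1: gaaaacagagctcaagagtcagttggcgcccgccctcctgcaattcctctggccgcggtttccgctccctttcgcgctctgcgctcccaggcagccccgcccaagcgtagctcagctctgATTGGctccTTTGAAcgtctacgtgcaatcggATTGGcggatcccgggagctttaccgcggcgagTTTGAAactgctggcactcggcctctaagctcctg
Cdc20: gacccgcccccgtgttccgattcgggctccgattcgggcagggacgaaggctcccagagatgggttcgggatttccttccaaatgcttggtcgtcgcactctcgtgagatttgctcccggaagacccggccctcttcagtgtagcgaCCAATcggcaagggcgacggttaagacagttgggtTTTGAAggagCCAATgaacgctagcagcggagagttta
Ccnb1: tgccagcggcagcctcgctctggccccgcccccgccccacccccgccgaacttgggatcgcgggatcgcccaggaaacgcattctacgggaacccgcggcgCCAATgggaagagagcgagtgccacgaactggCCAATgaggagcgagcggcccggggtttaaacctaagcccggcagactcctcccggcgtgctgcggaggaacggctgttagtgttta
Mki67: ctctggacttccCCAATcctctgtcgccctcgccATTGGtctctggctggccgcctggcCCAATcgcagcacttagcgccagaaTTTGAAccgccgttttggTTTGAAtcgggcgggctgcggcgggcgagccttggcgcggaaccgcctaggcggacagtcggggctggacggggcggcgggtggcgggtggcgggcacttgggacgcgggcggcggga

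**Figure D3:**
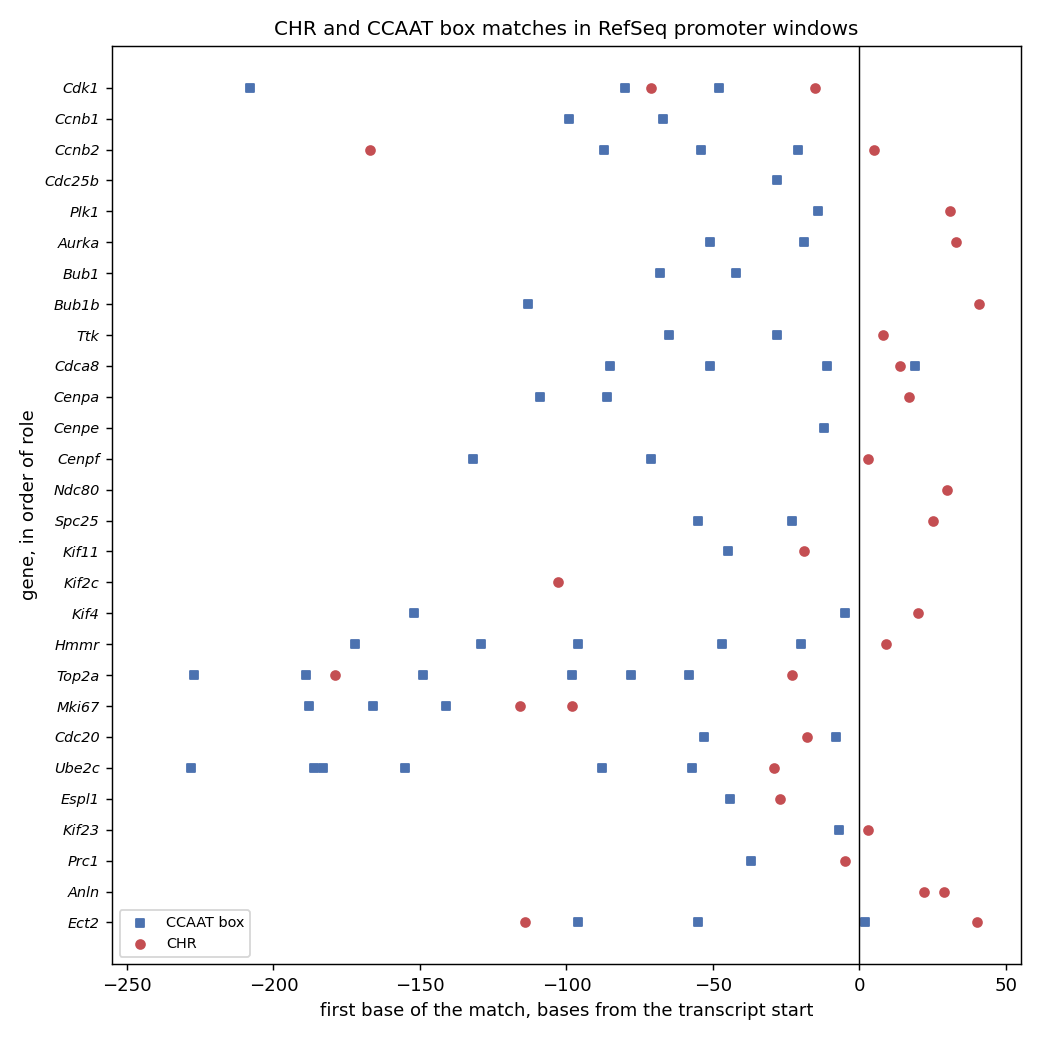
Distance from the transcript start, in bases, of the first base of each CHR match (circles) and CCAAT match (squares) in the promoter windows of the mitotic genes that hold either. Most CHR matches sit near the start, in 22 of 24 genes within 50 bases.

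Of the 6 genes of mitotic entry, 3 rose, or 50%, against 8.03% of all tested genes. *Cdk1* (ENSMUSG00000019942), the kinase that triggers mitosis, stood at 150.2, 123 and 156 CPM in scrambled replicates 1, 2 and 3 and at 206, 197 and 178 CPM in *Pgam* replicates 1, 2 and 3. The groups did not overlap, and scrambled replicate 2 was the lowest. *Cdk1* rose by 0.44 on the log2 scale (SE 0.11; edgeR quasi-likelihood test, Benjamini-Hochberg adjusted p = 0.0239). Its partner *Ccna2*, cyclin A2, which acts from S phase into early mitosis, stood at 232, 214 and 243 against 279, 304 and 289 CPM. Again the groups were apart, and *Ccna2* rose by 0.34 (SE 0.08; edgeR adjusted p = 0.0245). *Ccnb1*, cyclin B1, the cyclin whose destruction ends mitosis, stood at 196, 150.5 and 208 against 258, 247 and 230.4 CPM. The groups did not overlap, scrambled replicate 2 was the lowest by far, and *Ccnb1* rose by 0.41 (SE 0.12; edgeR adjusted p = 0.042). *Ccnb2*, cyclin B2, had the highest level of the class per kilobase and stood at 127, 124 and 134 against 138, 143 and 150.4 CPM. These values did not overlap either, with a log2 fold change of 0.17 that missed the edgeR threshold (adjusted p = 0.164). The phosphatases that activate CDK1 gave log2 fold changes of -0.20 for *Cdc25b* and 0.13 for *Cdc25c*, with overlapping groups. With 1 library left out, *Cdc25b* ran from -0.32 to -0.10 and *Cdc25c* from 0.08 to 0.18. The 3 calls of the class were lost without scrambled replicate 1, *Pgam* replicate 1 or *Pgam* replicate 2, and those of *Ccna2* and *Ccnb1* also without scrambled replicate 2, with edgeR adjusted p of up to 0.143.

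Among the kinases of the spindle poles and their activator, 2 of 3 rose, against 8.03% of all tested genes. *Plk1* (ENSMUSG00000030867, chr7:122159439-122169873), the polo-like kinase that matures centrosomes and acts at many steps of mitosis, stood at 127, 100.4 and 135 CPM in the scrambled libraries and at 171, 165 and 170.1 CPM in those labelled *Pgam* ASO. The *Pgam* ASO libraries were close together and all above the scrambled ones. *Plk1* rose by 0.48 (SE 0.11) and had the smallest adjusted p of the 40 genes (edgeR quasi-likelihood test, 0.0191). *Aurka*, the Aurora kinase of the spindle poles, stood at 89.2, 78.0 and 98.4 against 127, 116 and 109 CPM. Its groups were also apart, and it rose by 0.41 (SE 0.10; edgeR adjusted p = 0.028). *Tpx2*, which activates Aurora A on spindle microtubules, had a log2 fold change of 0.29 just short of the edgeR threshold (adjusted p = 0.0549). *Plk1* was called without scrambled replicate 2 and *Aurka* was not, while neither was called without scrambled replicate 1, *Pgam* replicate 1 or *Pgam* replicate 2 (edgeR adjusted p of up to 0.111).

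In the spindle checkpoint, which delays anaphase until all kinetochores are attached, 1 of 4 genes rose (25%), against 8.03% of all tested genes. *Mad2l1*, whose protein binds and holds back CDC20, stood at 94.98, 91.4 and 103 CPM in the scrambled libraries and at 116, 126 and 119 CPM in the others. The groups did not overlap, and *Mad2l1* rose by 0.32 (SE 0.08; edgeR quasi-likelihood test, adjusted p = 0.0286). *Bub1b*, which codes for BUBR1 of the same inhibitory complex, was the highest of the class per kilobase and stood at 164, 144 and 172 against 185, 185 and 201 CPM. It too was higher in every *Pgam* ASO library, with a log2 fold change of 0.25 that did not pass in edgeR (adjusted p = 0.0794). The kinases *Ttk* and *Bub1* gave 0.21 and 0.18. The call of *Mad2l1* was lost without scrambled replicate 1 or 2 and without *Pgam* replicate 1 or 2, with edgeR adjusted p of up to 0.134.

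The chromosomal passenger complex was the class in which 4 of 4 genes rose, against 8.03% of all tested genes. It moves from centromeres to the spindle midzone, corrects faulty attachments and later acts in cytokinesis. *Aurkb*, its kinase, stood at 152, 131 and 155 CPM in the scrambled libraries and at 178, 183 and 199 CPM in those labelled *Pgam* ASO. *Incenp*, the scaffold that binds and activates the kinase, stood at 216, 203 and 208 against 262, 256 and 258 CPM. For both genes the groups were apart, and for *Incenp* scrambled replicate 2 was not far below the others. *Cdca8*, which codes for borealin, stood at 136, 122 and 129.99 against 159, 158 and 156 CPM. *Birc5*, which codes for survivin and had the highest level of the class per kilobase, stood at 129.9, 119 and 124 against 149, 155 and 160.5 CPM. No gene of the complex had overlapping groups, and the log2 fold changes lay between 0.29 and 0.35. *Aurkb* rose by 0.35 (SE 0.09) with an edgeR adjusted p of 0.0305, and *Incenp* rose by 0.31 (SE 0.08) with an edgeR adjusted p of 0.0243. *Cdca8* rose by 0.29 (SE 0.08; edgeR adjusted p = 0.0348), and *Birc5* rose by 0.32 (SE 0.08; edgeR adjusted p = 0.0256). The summed level of the complex was 634, 575 and 616.5 CPM against 748, 752 and 774 CPM. *Incenp* was called in 3 of the fits that left out a library, *Cdca8* and *Birc5* in 2 each and *Aurkb* in 1. None of the 4 was called without scrambled replicate 1, *Pgam* replicate 1 or *Pgam* replicate 2 (edgeR adjusted p of up to 0.133), and *Incenp* alone was called without scrambled replicate 2.

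**Figure D4:**
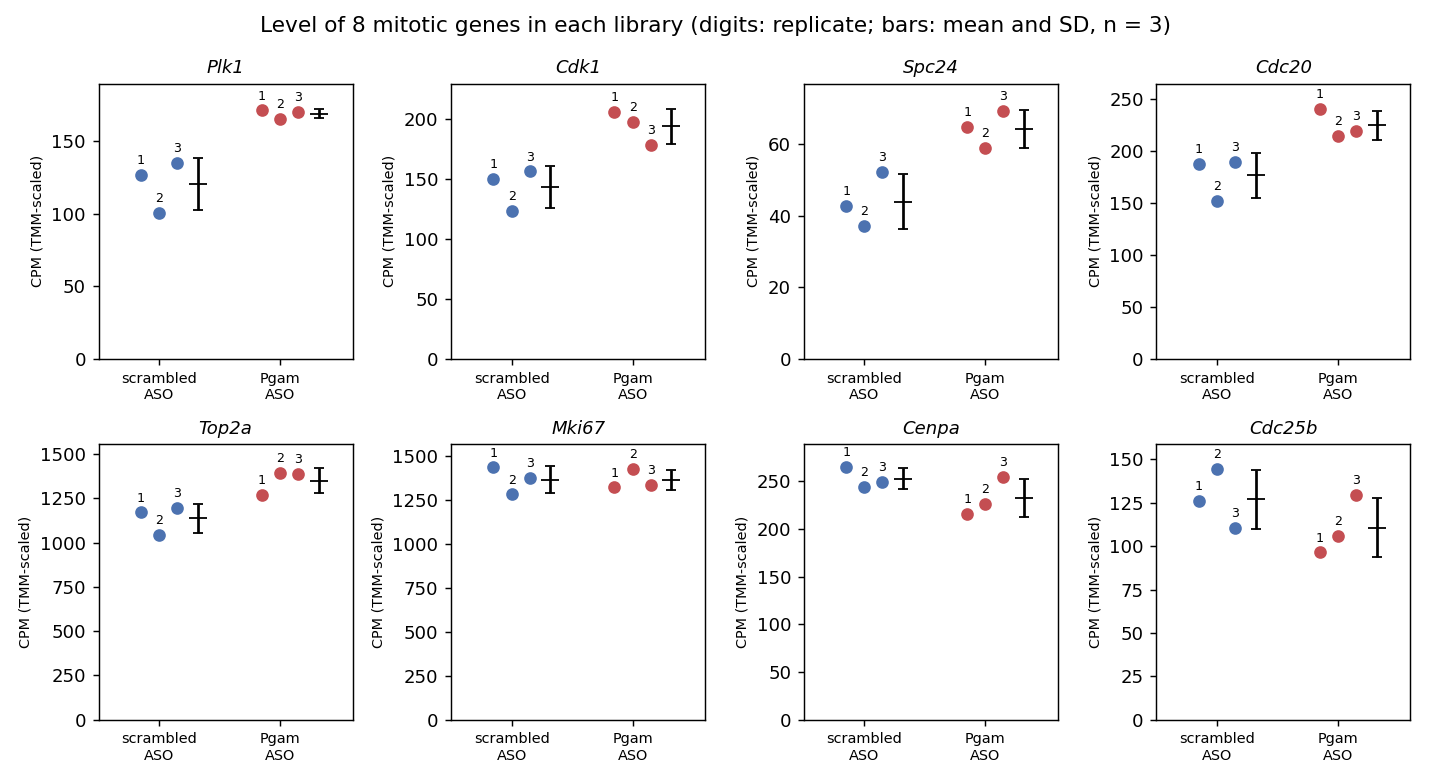
CPM of 8 mitotic genes in each library (points, numbered by replicate) with the mean and SD of each group (n = 3). *Plk1*, *Cdk1*, *Spc24* and *Cdc20* have groups that are apart and passed the test; *Top2a* is apart and did not pass, and *Mki67*, *Cenpa* and *Cdc25b* overlap.

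Of the 7 centromere and kinetochore genes 5 had a log2 fold change above 0, or 71.4%, against 49.4% of all tested genes, with a median of 0.13. By edgeR 1 was called higher, or 14.3%, against 8.03% of all tested genes. *Spc24* (ENSMUSG00000074476, chr9:21755442-21760303), a subunit of the NDC80 complex that grips microtubules, stood at 42.7, 37.1 and 52.2 CPM in the scrambled libraries and at 64.7, 58.8 and 69.3 CPM in those labelled *Pgam* ASO. The groups did not overlap, and *Spc24* rose by 0.55 (SE 0.13; edgeR quasi-likelihood test, adjusted p = 0.0212), the largest log2 fold change of the 40 genes. It was called without scrambled replicate 2 but not without scrambled replicate 1, *Pgam* replicate 1 or *Pgam* replicate 2 (edgeR adjusted p of up to 0.0827). Its dimer partner *Spc25* had a log2 fold change of 0.28 that missed the edgeR threshold (adjusted p = 0.0574), and the other dimer of the complex, *Ndc80* and *Nuf2*, gave 0.13 for each with overlapping groups. *Cenpa*, the histone H3 variant that marks centromeres, was the highest of the class per kilobase and stood at 264, 244 and 249 against 215, 226 and 254 CPM. The highest *Pgam* ASO library lay within the scrambled ones, and the log2 fold change of *Cenpa* was -0.12 (95% interval -0.32 to 0.07). *Cenpf*, a large protein of the outer kinetochore, gave -0.11. *Cenpe*, a kinesin that brings chromosomes to the spindle equator, gave 0.006, and -0.028 when scaled by library size alone. Summed, the class was at 937, 861 and 936 CPM against 866, 909.9 and 972 CPM, which overlapped.

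Of the 5 spindle motors and microtubule binders, 1 rose, or 20%, against 8.03% of all tested genes. *Kif11*, the kinesin that pushes the spindle poles apart, was the highest of them per kilobase and stood at 313, 293 and 315 CPM in the scrambled libraries and at 321, 363 and 367 CPM in the others. The lowest *Pgam* ASO library lay just above the highest scrambled one, and the log2 fold change of 0.19 did not pass (edgeR quasi-likelihood test, adjusted p = 0.142). *Hmmr*, a binder of spindle microtubules, stood at 129.7, 118 and 133 against 149.5, 163 and 149.9 CPM. The groups were apart, and *Hmmr* rose by 0.28 (SE 0.08; edgeR adjusted p = 0.0453), a call kept in 1 of the fits that left out a library, the one without scrambled replicate 3 (edgeR adjusted p of up to 0.186 in the others). The call of *Hmmr* was also lost with library size alone (edgeR adjusted p = 0.0563). *Kif4*, a chromosome-bound kinesin, *Kif2c*, which takes microtubules apart at centromeres, and *Nusap1*, which bundles them, gave log2 fold changes of 0.19, 0.08 and -0.03.

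The members with the most counts were *Top2a*, the topoisomerase that untangles sister chromatids, and *Mki67*, which codes for the Ki-67 protein that coats mitotic chromosomes and marks dividing cells. *Top2a* stood at 1170.5, 1042 and 1196.5 CPM in the scrambled libraries and at 1269.5, 1395 and 1386 CPM in those labelled *Pgam* ASO. The groups did not overlap, and its log2 fold change was 0.25 (95% interval 0.06 to 0.44), which did not pass after adjustment (edgeR quasi-likelihood test, adjusted p = 0.0666). *Mki67* stood at 1433, 1280.1 and 1375 against 1319.6, 1425 and 1335 CPM. Here the groups were intermixed, with group means of 1363 ± 77.4 and 1360.0 ± 57.1 CPM (SD, n = 3). For *Mki67* the fitted log2 fold change was -0.003, with a 95% interval of -0.18 to 0.17, and its sign changed with the scaling (0.002 with RLE factors). Neither gene was called by edgeR (0 of 2, with 1 at an unadjusted p under 0.05), where 8.03% of all tested genes were called higher. DESeq2 called *Top2a* (1 of 2) while limma-voom called 0. Without scrambled replicate 3, *Top2a* passed the edgeR test (adjusted p = 0.0455).

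All 4 genes of anaphase control were higher in every *Pgam* ASO library than in any scrambled one, which held for 19.6% of tested genes. *Pttg1* was higher by the least (23.05 against 23.08 CPM at the closest). Of the 4 genes 1 passed the edgeR test (25%), against 8.03% of all tested genes called higher. *Cdc20*, the activator that turns on the anaphase-promoting complex once the checkpoint is satisfied, stood at 188, 152 and 190.0 CPM in the scrambled libraries and at 241, 214 and 219 CPM in the others. *Cdc20* rose by 0.35 (SE 0.10; edgeR quasi-likelihood test, adjusted p = 0.0439). *Ube2c*, the ubiquitin-conjugating enzyme that works with this complex, was the highest of the class per kilobase and stood at 218, 173 and 222 against 255, 255 and 233 CPM. The lowest of the *Pgam* ASO libraries lay close to the highest scrambled one, and the log2 fold change was 0.28 (edgeR adjusted p = 0.0931). *Pttg1*, securin, and *Espl1*, separase, the inhibitor and the protease that cuts cohesin, gave 0.44 and 0.28 and fell just short in edgeR, with adjusted p of 0.058 and 0.0555. The call of *Cdc20* was kept in 1 of the fits that left out a library, the one without scrambled replicate 3, and the edgeR adjusted p rose to at most 0.143 in the others.

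For cytokinesis, none of the 5 genes passed the edgeR test (0 of 5), where 8.03% of all tested genes rose. At an unadjusted p under 0.05, 3 were higher, and 0 were called by DESeq2 or limma-voom. All 5 log2 fold changes were above 0, from 0.14 to 0.27. *Prc1*, which bundles the microtubules of the spindle midzone, was the highest of the class per kilobase and stood at 117, 107 and 113 CPM against 124, 139.9 and 138 CPM. Its groups did not overlap, and the log2 fold change was 0.25 (SE 0.08; edgeR quasi-likelihood test, adjusted p = 0.0629). *Anln*, the actin binder anillin of the contractile ring, came closest with 0.27 (edgeR adjusted p = 0.054). *Kif23* and *Kif20a*, kinesins of the midzone, and *Ect2*, the activator of RhoA there, gave 0.20, 0.14 and 0.20.

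Partners within a complex or a gene family can be set against each other by their count ratio in each library, which does not depend on scaling. The log2 ratio is given for 7 pairs as a description with no test, since the pairs were chosen after their values were seen. *Spc24* over *Spc25* stood at 0.12, -0.07 and 0.32 in the scrambled libraries and at 0.48, 0.30 and 0.44 in those labelled *Pgam* ASO. The ranges overlapped, with a difference of 0.28 between the group means. *Ccnb1* over *Ccnb2* differed by 0.25, with 0.63, 0.28 and 0.64 against 0.91, 0.79 and 0.62, and again overlapped. *Cenpe* over *Cenpf* was the pair with groups apart, at -0.29, -0.26 and -0.25 against -0.06, -0.17 and -0.21, a difference of 0.12. The difference was -0.33 for *Cdc25b* over *Cdc25c*, -0.08 for *Bub1* over *Bub1b*, 0.05 for *Aurka* over *Aurkb* and -0.001 for *Ndc80* over *Nuf2*, each with overlapping groups.

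Of 127 other genes of mitosis in 7 lists, 111 had a log2 fold change above 0, or 87.4%, and the median was 0.20. By edgeR 25 were called higher, or 19.7%, and 1 lower, where 8.03% of all tested genes were called higher, and whether these lists differ from the 40 genes was not tested. By list, 7 of 13 other entry genes (53.8%, median 0.32), 7 of 17 other outer kinetochore and checkpoint genes (41.2%, median 0.29) and 8 of 39 other spindle, centrosome and cytokinesis genes (20.5%, median 0.20) rose. Nearer to the share over all genes were the anaphase-promoting complex and its regulators, with 2 of 17 (11.8%, median 0.07), and condensin, with 1 of 8 (12.5%, median 0.13). In the inner centromere network 0 of 19 passed in edgeR (5 higher and 0 lower at an unadjusted p under 0.05, 0 by DESeq2 and by limma-voom). Its log2 fold changes were above 0 in 18 of 19 genes, with a median of 0.21. In cohesin and its regulators 0 of 14 rose (2 higher at an unadjusted p under 0.05, 0 by DESeq2 and by limma-voom) and 1 fell. There 9 of 14 log2 fold changes were above 0, with a median of 0.06. Without scrambled replicate 1 or 2, or *Pgam* replicate 1 or 2, the count of 25 was 1, 6, 3 and 0 (34 at an unadjusted p under 0.05 in the last), and without scrambled replicate 3 it was 38. The share of all tested genes called higher moved as well, to 1.45%, 3.25%, 2.1% and 1.03%, and to 11% without scrambled replicate 3. The gene that fell was called without scrambled replicate 2, and no gene was called lower without scrambled replicate 1 or *Pgam* replicate 1 or 2 (4, 3 and 3 at an unadjusted p under 0.05).

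*Cdc25a*, the phosphatase that activates CDKs from G1 onward, led these lists: it stood at 84.3, 64.5 and 87.3 CPM against 132, 121 and 107 CPM and rose by 0.61 (SE 0.12; edgeR quasi-likelihood test, adjusted p = 0.0138). Beside it, *Arpp19*, *Pkmyt1* and *Cks2* of the entry list rose by 0.41, 0.40 and 0.32. At the kinetochore, *Mad1l1*, which recruits MAD2, rose by 0.46, *Zwint* by 0.47, *Ska2* by 0.40 and *Bub3* by 0.32. In the spindle list the minus-end motor *Kifc1* rose by 0.41, *Gtse1* by 0.47, *Tacc3* by 0.39 and *Plk4*, the kinase of centriole duplication, by 0.41. *Ube2s*, which extends ubiquitin chains for the anaphase-promoting complex, rose by 0.43, and its inhibitor *Fbxo5* by 0.31. *Ncapg2* of condensin II rose by 0.33. *Nipbl*, the loader of cohesin, was the gene that fell, at 238, 283 and 212 CPM against 170.4, 178 and 186 CPM, by 0.45 on the log2 scale (log2 fold change -0.45, SE 0.11; edgeR adjusted p = 0.0228). In the inner centromere network, *Cenpn* and *Cenpw* had the smallest p, with log2 fold changes of 0.31 and 0.46.

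The plot of lists sets these beside S phase and the regulators. Of 41 S phase genes, 40 had a log2 fold change above 0, with a median of 0.34, and 14 rose in the edgeR test, or 34.1%, while 0 fell (0 lower at an unadjusted p under 0.05, 0 by DESeq2 and by limma-voom). Of all tested genes 8.03% rose and 9.15% fell. *Rrm2*, a subunit of ribonucleotide reductase, rose by 0.53, *Clspn* by 0.35 and *Cdca7* by 0.44. The count of 14 was 1, 3, 27, 1 and 0 without scrambled replicates 1, 2 and 3 and *Pgam* replicates 1 and 2 (18 at an unadjusted p under 0.05 in the last). In the same fits 1.45%, 3.25%, 11%, 2.1% and 1.03% of all tested genes were called higher. The S phase genes had the same low library: the median gene was at -0.34 in scrambled replicate 2 on the log2 scale, relative to its own mean. Whether the S phase and mitotic lists differ in their change was not tested.

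**Figure D5:**
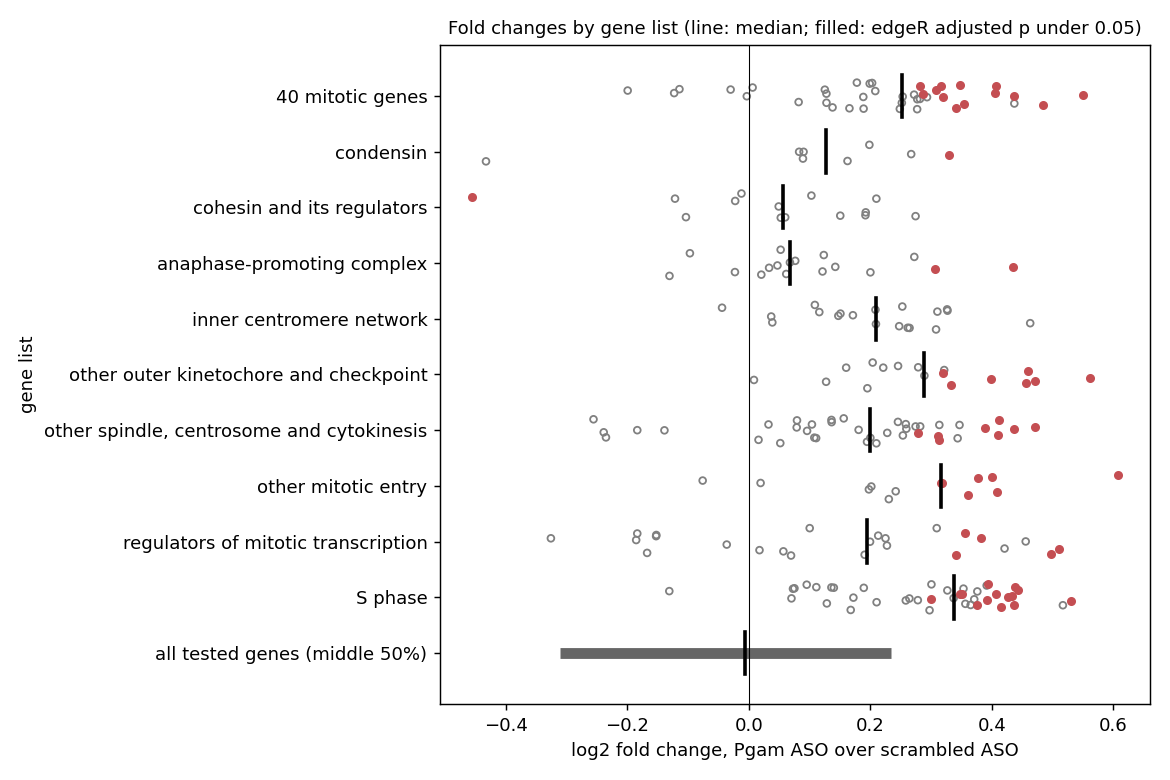
Log2 fold change of each gene in the 40 mitotic genes, in 7 lists of other mitotic genes, in regulators of mitotic transcription and in S phase genes, with list medians (black lines), and the middle 50% of all tested genes (grey bar). The median is 0.25 for the 40 genes, 0.34 for S phase and -0.006 for all tested genes.

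Of 24 regulators of mitotic transcription, 5 rose by edgeR, or 20.8%, against 8.03% of all tested genes. None fell (0 by edgeR, 1 lower at an unadjusted p under 0.05, 0 by DESeq2 and by limma-voom), against 9.15% of all tested genes. *Tfdp1*, the partner of E2F proteins, rose by 0.50, *E2f4* by 0.36, *E2f7* by 0.34 and *E2f3* by 0.38. *Mybl2*, which codes for the B-MYB protein that activates G2 and M genes, stood at 82.5, 59.0 and 85.4 CPM against 125, 105 and 94.02 CPM and rose by 0.51 (SE 0.15; edgeR quasi-likelihood test, adjusted p = 0.0447). *Foxm1*, a second activator of these genes, stood at 124, 111 and 119.6 against 132, 139.7 and 142 CPM. Its groups were apart too, with a log2 fold change of 0.23 that did not pass (edgeR adjusted p = 0.0762). *Cdkn1a*, the CDK inhibitor p21, stood at 182, 126 and 221 against 265, 239 and 223 CPM. The groups came close to touching, and the log2 fold change of *Cdkn1a* was 0.46 and did not pass (edgeR adjusted p = 0.105). The count of 5 was 1 without scrambled replicate 1 or 2 or *Pgam* replicate 1, and 0 without *Pgam* replicate 2 (5 at an unadjusted p under 0.05). Of all tested genes 1.45%, 3.25%, 2.1% and 1.03% were called higher in these 4 fits. With library size alone the count was 3, where 7.19% of all tested genes were called higher. *Tfdp2* was called lower (1 gene) without scrambled replicate 3 or without *Pgam* replicate 3.

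Genes that mark cell types, and RNAs of the mitochondrial genome, also differed between the groups. Of 10 markers of CD4 T cells, 9 had a log2 fold change below 0, where 49.4% of all tested genes were above 0. By edgeR 3 fell (*Cd28*, *Cd5* and *Trac*, with log2 fold changes of -0.66, -0.49 and -0.30), against 9.15% of all tested genes. DESeq2 called 5 lower and limma-voom 3, and 9 were lower at an unadjusted p under 0.05. In 9 markers all *Pgam* ASO libraries lay below all scrambled ones, which held for 19.8% of tested genes. The summed level of the 10 markers was 3889, 4246 and 3642 CPM in the scrambled libraries and 3107, 3226 and 3345 CPM in those labelled *Pgam* ASO, with *Cd4* the most counted. Of 13 RNAs encoded by mitochondrial DNA 12 were tested and 9 fell, against the same 9.15% of all tested genes. The sum, led by *mt-Co1*, was 18178, 19535 and 18439 CPM against 11358, 12831 and 11331 CPM. Of 6 B cell markers 4 had a log2 fold change below 0 and 2 above, and *Ighm* fell. At an unadjusted p under 0.05, 2 of the 6 were lower and 1 higher. DESeq2 also called 2 lower and 1 higher, while edgeR and limma-voom called 1 lower and 0 higher. The sum was 329, 458 and 222 against 85.3, 119.8 and 149.9 CPM, nearly all of it *Ighm*. *Ms4a1* and *Pax5* were nearly absent, with a highest value of 1.29 CPM for *Ms4a1* and 2.55 CPM for *Pax5*.

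Of the CD8 T cell markers, *Cd8a* rose (1 of 2), where by edgeR 8.03% of all tested genes rose and 9.15% fell. *Cd8a* had a log2 fold change of 1.12, while *Cd8b1* had -0.20 and was not called. The sum, mostly *Cd8b1*, was 11.3, 13.5 and 10.8 against 14.6, 10.9 and 15.7 CPM. Of 5 markers of mast cells and basophils, *Gata2* rose (1 of 2 tested), and the sum, led by *Cpa3*, was 1.63, 2.32 and 1.92 against 6.71, 5.07 and 3.96 CPM, with *Fcer1a* and *Mcpt8* at 0 in scrambled replicate 1. Of 4 NK cell markers, *Eomes*, which T cells can also express, fell and made up nearly the whole sum of 52.6, 32.2 and 55.02 against 28.3, 26.9 and 24.1 CPM, while *Klrb1c* and *Klra8* were at 0 in every library. Of the 8 myeloid markers 0 of 5 tested were called by edgeR (1 lower at an unadjusted p under 0.05, 0 by DESeq2 and by limma-voom), with a sum, led by *Cd68*, of 10.8, 9.99 and 9.11 against 9.81, 8.34 and 9.53 CPM. Of the 7 erythroid markers 0 of 3 tested were called (1 lower at an unadjusted p under 0.05, 0 by DESeq2 and by limma-voom), with a sum, led by *Alas2*, of 4.16, 2.92 and 2.29 against 1.61, 2.44 and 2.90 CPM and *Hba-a2* at 0 in every library. The part of these differences in the values of the mitotic genes was not tested.

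Reads of 8 members may be divided with another gene that holds at least 10% of their 31-base stretches. These are *Ccnb1* with 3 pseudogenes, *Plk1* and *Cdc20* with 1 each, *Cdc25c* with *Gm3550*, and *Ccna2*, *Kif20a*, *Kif4* and *Ube2c* with a gene that overlaps them on the other strand. When the counts of such partners were added, all 8 kept the direction and the side of the threshold in the edgeR test. The partners of *Ube2c* and *Cdc20* held only 0 and 5 counts over all libraries, so for these genes the sum could decide nothing. Those of *Ccnb1* held 209, 28 and 3 counts and that of *Plk1* held 135, against 21525 and 14496 counts of the members. These sums could therefore change little. For *Ccna2*, *Kif20a* and *Kif4* the sum also takes in the partner gene's own transcripts, so it cannot isolate shared reads.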

How the data were processed

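RNA of 6 libraries, 3 with the scrambled and 3 with the *Pgam* ASO by their labels, was analysed from 1 table of estimated counts per Ensembl gene, which the authors made with kallisto and deposited as whole numbers; they were used as deposited. GRCm38 is named in the submitters' processing notes, while kallisto's version, the annotation release and the summing of transcripts are not given in the sources used here. Symbols matched 52073 of 56748 gene IDs, and 28236 genes were at 0 in every library.

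The members and lists were chosen with earlier results of these data known. In R 4.3.3, edgeR 4.0.16 was run with filterByExpr, TMM scaling, a robust quasi-likelihood fit on group alone, a two-sided test and Benjamini-Hochberg adjustment over 14936 genes, at an adjusted p under 0.05. Both edgeR and DESeq2 were tested on simulated data with a fold of 2. There DESeq2 recovered more of the altered genes and made the larger share of false calls. Smaller folds, such as those of the members, were not tested. Alternatives were DESeq2 1.42.0, limma-voom (limma 3.58.1), RLE factors, library size alone, no filter, at least 10 counts in every library, the replicate number as a block, a threshold of 0.01, each library left out, and counts summed with genes that hold at least 10% of a member's 31-base stretches in GENCODE M21 transcripts. CPM per kb uses the longest principal transcript, a length chosen after first values were seen.

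Values in every library are given for members that passed, for the member with the highest CPM per kb in each role class, and for *Mki67*, *Top2a*, *Ccnb1* and *Cdc20*. In each other list up to 4 genes with the smallest adjusted p are named, or 2 where none passed, and *Foxm1*, *Mybl2*, *Cdkn1a*, *Pgam1* and *Pgam2* in any case; 1 S phase gene that the rule names and 1 B cell marker are not reported here. Other genes named, *E2f3* and *Tfdp2* among them, the per-library values of *Cdc25a* and *Nipbl*, the partner pairs and the 4 printed promoters were chosen after their values were seen. No 2 libraries agreed within sampling noise.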

Additional observations from a re-analysis of the deposited data

How the results depend on the processing

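Of the 13 members called higher, all 13 were also called by DESeq2, limma-voom, RLE factors, no filter and at least 10 counts in every library, and 12 with library size alone, which lost *Hmmr*. With library size alone 18 other mitotic genes were higher, against 25 in the main fit, and 2 were lower. In that fit 3 regulators were higher, with 7.19% of all tested genes called higher. DESeq2 also gave 2 other mitotic genes lower. With no filter 1832 of all genes were higher, 23 S phase genes higher, 2 other mitotic genes lower and 1 regulator lower. At an adjusted p under 0.01, 0 members, 0 other mitotic genes, 0 S phase genes and 0 regulators were higher, 0 other mitotic genes were lower, and of all genes 173 were higher and 280 lower (edgeR; the stricter threshold is the construction).

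With the replicate number as a block, which leaves fewer residual degrees of freedom, 2 members (*Plk1* and *Spc24*), 5 other mitotic genes, 1 S phase gene, 1 regulator and 480 of all genes were higher, and 0 other mitotic genes and 755 of all genes lower in edgeR. Across genes, deviations from the group means correlated at 0.0534, -0.034 and -0.237 for equal numbers, on average -0.0724 against 0.0364 for unequal ones. Single unequal pairs ran from -0.254 to 0.28. With 3 libraries per group, these few values cannot decide whether libraries of equal number belong together.

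With 1 library left out, the count ran from 0 to 18 for members higher, from 160 to 1711 for all genes higher, from 231 to 1773 for all genes lower, from 0 to 38 for other mitotic genes higher and from 0 to 2 lower, from 0 to 27 for S phase genes, and from 0 to 7 for regulators higher and from 0 to 1 lower. Fewer samples entered these fits.

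The direction turned for 3 members near 0. *Cenpe* was at -0.028 with library size alone, at -0.005 with at least 10 counts in every library, and from -0.034 to 0.03 with a library left out. *Nusap1* ran from -0.079 to 0.065 with a library left out. *Mki67* was at 0.002 in DESeq2 and with RLE factors, at 0.008 with no filter, and from -0.047 to 0.031 with a library left out. Where not given above, the cause was not tested.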
